A study of Mus musculus with 16 samples.

Results

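Polyamine metabolism was described in mouse kidney through 10 genes: Aoc1, Odc1, Amd1, Srm, Sms, Sat1, Smox, Paox, Azin1 and Oaz1. The list was chosen by gene symbol, as genes that make, break down or regulate polyamines, and all 10 were found among the 40472 genes of the deposited table. Aoc1 (ENSMUSG00000029811.15) was picked for its large rise in the injured kidneys of these same libraries, so its difference between injured and uninjured kidneys is given as a description, with no test. The other 9 were listed for their place in the pathway.

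RNA with poly(A) tails was sequenced from whole kidneys of male C57BL/6 mice aged 12 weeks, in 16 libraries of 4 groups with 4 libraries each. NV mice had no injury and received vehicle. NP mice had no injury and received PJ34, which inhibits poly(ADP-ribose) polymerases. IRV mice had ischemia reperfusion, a surgery in which blood flow to the kidney is stopped and then restored, and received vehicle, and IRP mice had the same surgery and received PJ34. Replicates carry numbers in the labels, with no word on whether they are separate animals, so p-values reflect only the spread among the libraries, which may be technical. The design text sets out to follow PJ34 over the long term, and the sources used here name no day of collection.

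Polyamines (putrescine, spermidine and spermine) are small positively charged molecules that bind RNA and DNA and are needed for growth and protein synthesis. Ornithine decarboxylase makes putrescine from ornithine, and spermidine and spermine synthases lengthen it with aminopropyl groups that come from S-adenosylmethionine. Breakdown runs through acetylation and oxidation, and diamine oxidase, the product of Aoc1, is a secreted copper enzyme that oxidises putrescine and histamine. In the mouse, renal Odc1 is known as a gene of the proximal tubule that responds to androgens.

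Start regions were read from the RefSeq promoter table of build GRCm38.p6, which holds 11 windows for 8 of the 10 genes. The submitters' processing notes name another build, GRCm39, so the coordinates below belong to the sequences only. Both start regions of Aoc1 are shown because its level differed most between groups, and that of Odc1 as a gene of synthesis that, like Sms, was lower in both injury comparisons. Each holds the 250 bases before the annotated start, 5′ to 3′ on the plus strand, and capitals mark the GC box GGGCGG or its reverse complement CCGCCC.
Aoc1 first start, chr6:48895005-48895254: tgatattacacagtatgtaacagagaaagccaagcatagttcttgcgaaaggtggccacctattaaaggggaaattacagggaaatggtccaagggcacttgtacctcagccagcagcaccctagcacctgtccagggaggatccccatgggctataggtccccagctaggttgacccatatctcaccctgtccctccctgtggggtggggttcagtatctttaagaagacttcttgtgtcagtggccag
Aoc1 second start, chr6:48904736-48904985: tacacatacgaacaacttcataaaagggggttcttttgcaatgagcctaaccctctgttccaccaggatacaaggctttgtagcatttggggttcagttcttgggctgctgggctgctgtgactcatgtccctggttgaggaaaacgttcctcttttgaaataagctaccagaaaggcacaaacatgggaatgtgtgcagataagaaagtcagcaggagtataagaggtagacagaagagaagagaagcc
Odc1 start, chr12:17544623-17544872: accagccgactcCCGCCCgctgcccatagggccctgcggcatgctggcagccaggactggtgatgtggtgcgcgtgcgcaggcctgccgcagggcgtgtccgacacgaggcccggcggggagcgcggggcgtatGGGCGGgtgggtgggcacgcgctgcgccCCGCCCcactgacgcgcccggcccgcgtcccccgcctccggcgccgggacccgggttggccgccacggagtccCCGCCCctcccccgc

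The 2 windows of Aoc1 differ in kind from that of Odc1. Their G and C share was 51.2% and 45.6%, near the median of 52.4% over all 32851 windows of the table, and neither held any of 5 motifs searched on both strands. The Odc1 window was 80% G and C and held 4 GC boxes. Across the table, 32.7% of windows held a GC box, against 7 of the 11 windows of these genes. The 2 windows of Paox, which start at bases 140125407 and 140125435, overlap and share a GC box, so the 11 are not independent. The E-box CACGTG stood in 6.02% of all windows and in 1 window of Sms, and the antioxidant response element core TGACNNNGC stood in 10.2% of all windows and in those of Smox and Oaz1. The CCAAT box stood in 33.8% of all windows and in 1 window each of Oaz1 and Sms, and TATAAA in 12.4% of all windows and in 0 of the 11. These are matches of letters, not binding sites.

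The libraries fell into 2 sets by depth. The shallow set was all of NV and NP with IRV replicates 1 and 2, at 973812 to 1659983 counts each. The deep set was IRV replicates 3 and 4 with all of IRP, at 4963638 to 6169748 counts each. Olfactory, vomeronasal, taste and trace amine receptor genes took 6215 to 11002 CPM (counts-per-million of the scaled library) in the 10 shallow libraries and 240 to 500 CPM in the 6 deep ones. Within IRP against NP the set and the injury cannot be told apart, so fits with the set as a covariate, which rest on the 4 IRV libraries, are given beside the results. In the column headers IRV replicates 1 and 2 are coded IRV32L and IRV32R, and replicates 3 and 4 IRV3NC and IRV3RL. The codes are not explained, so within IRV the set cannot be told apart from what they stand for. As a check of the injury labels, Havcr1 and Lcn2, known markers of injured tubules, were higher at log2 differences of 4.34 and 3.95 for IRV against NV and of 4.62 and 4.08 for IRP against NP. Kidney markers were present in all groups: no gene of the proximal tubule (10), loop and distal tubule (5), collecting duct (6) and podocyte (4) lists was at 0 in any of them.

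Aoc1 was near the floor of detection in uninjured kidneys and plainly present in every injured one. NV libraries 1 to 4 held 1.71, 0.956, 1.80 and 3.09 CPM, which rest on 2, 1, 2 and 4 counts, and NP libraries held 2.88, 1.49, 3.26 and 2.34 CPM, from 3, 2, 3 and 3 counts. IRV libraries held 75.0, 53.5, 112 and 73.5 CPM and IRP libraries 118, 34.1, 57.6 and 86.5 CPM. All 8 injured libraries lay above all 8 uninjured ones, with a gap between 3.26 and 34.1 CPM, and the same is true of 8.8% of the 13614 genes tested. None of the other 9 genes separated the libraries in this way.

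**Figure D1:**
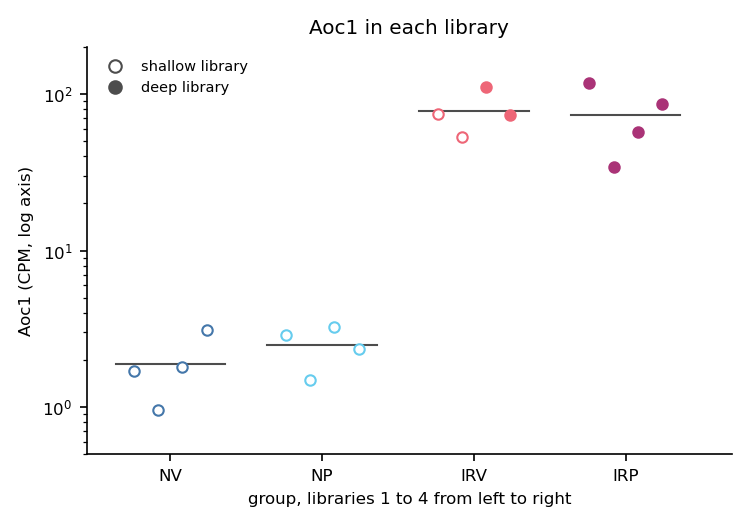
Aoc1 in CPM on a log axis for each of the 16 libraries, by group. Open circles are shallow libraries, filled circles deep ones, and bars are group means; the uninjured libraries stay at or below 3.26 CPM and the injured ones at or above 34.1 CPM.

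The group means were 1.89 ± 0.885 CPM in NV, 2.49 ± 0.770 in NP, 78.4 ± 24.2 in IRV and 74.0 ± 36.3 in IRP (SD, n = 4). The summed level was 44.7 times higher in IRV than in NV, from 1522 against 9 counts, with a 95% interval of 23.5 to 98.0 that covers counting error only. For IRP against NP it was 32.5 times higher, from 2098 against 11 counts, with an interval of 18.2 to 65.3. The fitted log2 differences were 5.33 ± 0.51 and 4.93 ± 0.49 (SE). Fitted with the set as a covariate they were 4.99 ± 0.62 and 4.38 ± 0.70, and within the shallow libraries alone IRV stood 4.95 ± 0.34 above NV. Aoc1 entered the tested genes only through its injured libraries, since 0 of 8 uninjured libraries reached the minimum of 6.29 CPM. In whole kidney, more cells that express a gene and more RNA per cell cannot be told apart, and the same holds for fewer cells and less RNA per cell.

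The spread of Aoc1 among injured libraries ran beside that of other injury genes. IRP replicate 2, with the lowest Aoc1 of the injured libraries, also had the highest summed proximal tubule markers of the 8 (7996 CPM) and the lowest sums for injured tubule (2318 CPM) and macrophage (397 CPM) markers. IRP replicate 1, with the highest Aoc1, had the highest sums for injured tubule (4239 CPM) and macrophage (1058 CPM) markers. Within the IRP group the 4 libraries took the same order for Aoc1 and for both of those sums, and within IRV replicate 2 was lowest and replicate 3 highest in all 3.

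The cell type markers moved between groups as well. The 10 proximal tubule markers summed to 8913 to 10768 CPM in NV, 9408 to 11602 in NP, 3835 to 5657 in IRV and 3972 to 7996 in IRP. All 10 were lower in IRV than in NV, and 8 of the 10 were lower in IRP than in NP. The 8 injured tubule markers summed to 657 to 850 CPM in NV, 716 to 782 in NP, 2902 to 3856 in IRV and 2318 to 4239 in IRP, and all 8 were higher in both injury comparisons. The 9 macrophage markers, which include Lyz2 and C1qa, summed to 80.3 to 106 CPM in NV, 81.1 to 148 in NP, 545 to 912 in IRV and 397 to 1058 in IRP, with all 9 higher in both comparisons. Spp1 was the largest part of the injured tubule sum, with means of 2425 CPM in IRV and 2293 in IRP. Lyz2 was the largest part of the macrophage sum, with means of 282 and 297 CPM, so the sums weigh these genes most. The 7 mast cell markers summed to 13.7 to 21.6 CPM in NV, 17.4 to 23.1 in NP, 36.5 to 49.3 in IRV and 33.5 to 54.0 in IRP. Of those 7, only Kit was abundant enough to test, and the higher sums after injury are those of Kit, with means of 11.8 CPM in NV, 14.4 in NP, 37.4 in IRV and 42.8 in IRP. Ms4a2 had means of 3.46, 4.11, 2.38 and 0.671 CPM in the same order, and the other 5 stayed under 0.7 CPM on average in each group, with Tpsb2 at 0 in NP. The 6 fibroblast markers, collagen genes among them, summed to 128 to 319 CPM in NV, 228 to 345 in NP, 1197 to 1892 in IRV and 842 to 2255 in IRP, with 5 of 6 higher in both comparisons (medians 2.33 and 2.20). Their sums took the same order as Aoc1 within IRP, and within IRV were lowest in replicate 2 and highest in replicate 3.

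The calls of these lists stand beside 15.9% of all genes called higher and 11.1% lower in IRV against NV, and 19.6% and 24% in IRP against NP. Under the covariate, 9 of 10 proximal tubule markers were lower in IRV than in NV, and 8 of 8 injured tubule and 9 of 9 macrophage markers higher. For IRP against NP that fit called 1 of 10 proximal tubule markers lower, and 5 of 8 injured tubule and 5 of 9 macrophage markers higher. It called 5 of 6 fibroblast markers higher in both. All genes then gave 7.93% higher and 6.13% lower, and 2.52% and 0.786%. The tested markers include some, such as Lcn2, Sox9 and Adgre1, that reached the minimum of 6.29 CPM only in injured libraries. The part of these cell types in the level of Aoc1 was not tested.

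The genes whose profile over the 16 libraries was most like that of Aoc1 were Lyz2, Mpeg1, Stra6, Lcn2, Ctss and Igfbp2. Likeness was the root-mean-square difference of log2 CPM after each gene's uninjured mean was subtracted, and it was 0.65 for Lyz2, 0.69 for Mpeg1, 0.75 for Stra6, 0.81 for Lcn2, 0.82 for Ctss and 0.87 for Igfbp2. The median over 12108 candidate genes was 3.38, and Aoc1 itself stood on average 4.75 above its uninjured level in the injured libraries. Lyz2 (a lysozyme), Mpeg1 (a pore-forming protein) and Ctss (a lysosomal protease) are known from macrophages and other phagocytes. Lcn2 encodes an iron-siderophore binding protein released by injured tubules, Stra6 a receptor for retinol-binding protein, and Igfbp2 an insulin-like growth factor binding protein. The measure ranks genes of a like size of change, and the libraries share depth and injury state. In IRP replicates 1 to 4, Mpeg1 held 246, 75.7, 157 and 151 CPM and Stra6 held 47.6, 19.9, 25.0 and 27.1 CPM. Replicate 2 was the lowest IRP library for both, as it was for Aoc1. Genes chosen for a profile like that of Aoc1 over these libraries tend to share this, so it is no separate result.

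Sat1 and Paox, other genes of breakdown, did not rise with Aoc1 by the test, and Smox is given as a description. Counts of the 9 genes here and below include Smox, which passed the filter only through its injured libraries. Of the 9 genes other than Aoc1, edgeR called 0 higher in IRV than in NV, where 15.9% of all genes tested were called higher, and 3 lower, where 11.1% were called lower. For IRP against NP it called 0 of the 9 higher (background 19.6%) and 2 lower (background 24%). At an unadjusted p under 0.05 the counts in either direction were 4 and 3 of the 9, beside 5301 and 6876 of the 13614 genes tested. DESeq2 and limma-voom also called 0 of the 9 higher in both comparisons. The median log2 difference of the 9 was −0.29 for IRV against NV and −0.27 for IRP against NP, beside −0.03 and −0.01 over all genes tested.

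Sat1 encodes spermidine/spermine acetyltransferase, which tags polyamines for oxidation or export. Its level hardly varied: NV libraries held 96.6, 104, 106 and 102 CPM and NP libraries 108, 104, 117 and 107 CPM. IRV libraries held 90.5, 102, 119 and 117 CPM and IRP libraries 107, 107, 119 and 105 CPM. The groups overlapped fully, and the log2 differences were 0.08 ± 0.10 for IRV against NV (adjusted p = 0.574) and 0.01 ± 0.10 for IRP against NP (adjusted p = 0.95). The 95% intervals ran from −0.13 to 0.29 and from −0.20 to 0.22.

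Smox encodes spermine oxidase, which turns spermine back into spermidine. NV libraries held 1.71, 2.87, 3.60 and 5.41 CPM and NP libraries 3.84, 4.46, 5.44 and 0.781 CPM. IRV libraries held 10.3, 6.08, 6.53 and 8.82 CPM and IRP libraries 11.1, 5.07, 6.02 and 7.03 CPM. Every IRV library lay above every NV library, while IRP replicate 2 lay below NP replicate 3. How many of all genes separate 4 libraries from 4 in this way was not counted. The log2 differences, given as a description, were 1.17 ± 0.46 and 1.04 ± 0.45. The ratios of summed level were 2.23 (95% counting interval 1.32 to 4.01) and 2.19 (1.31 to 3.90), from 16 counts in each uninjured group against 135 in IRV and 205 in IRP. Like Aoc1, Smox was among the tested genes only through its injured libraries, so its values are not a test. With scaling by library totals alone its log2 differences were 1.69 and 1.66, where the median of all genes had moved to 0.49 and 0.57.

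Paox encodes the peroxisomal oxidase of acetylated polyamines. NV libraries held 11.1, 6.69, 8.10 and 4.63 CPM, NP libraries 7.69, 10.4, 6.52 and 7.03 CPM, IRV libraries 13.4, 9.72, 4.97 and 4.86 CPM and IRP libraries 5.20, 5.80, 3.08 and 6.55 CPM. Within IRV the 2 shallow libraries were the high ones and the 2 deep libraries the low ones. The log2 difference was −0.03 ± 0.40 for IRV against NV (adjusted p = 0.97) and −0.63 ± 0.39 for IRP against NP (adjusted p = 0.203), and with the set as a covariate both turned positive, at 0.57 and 0.55, with neither called.

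**Figure D2:**
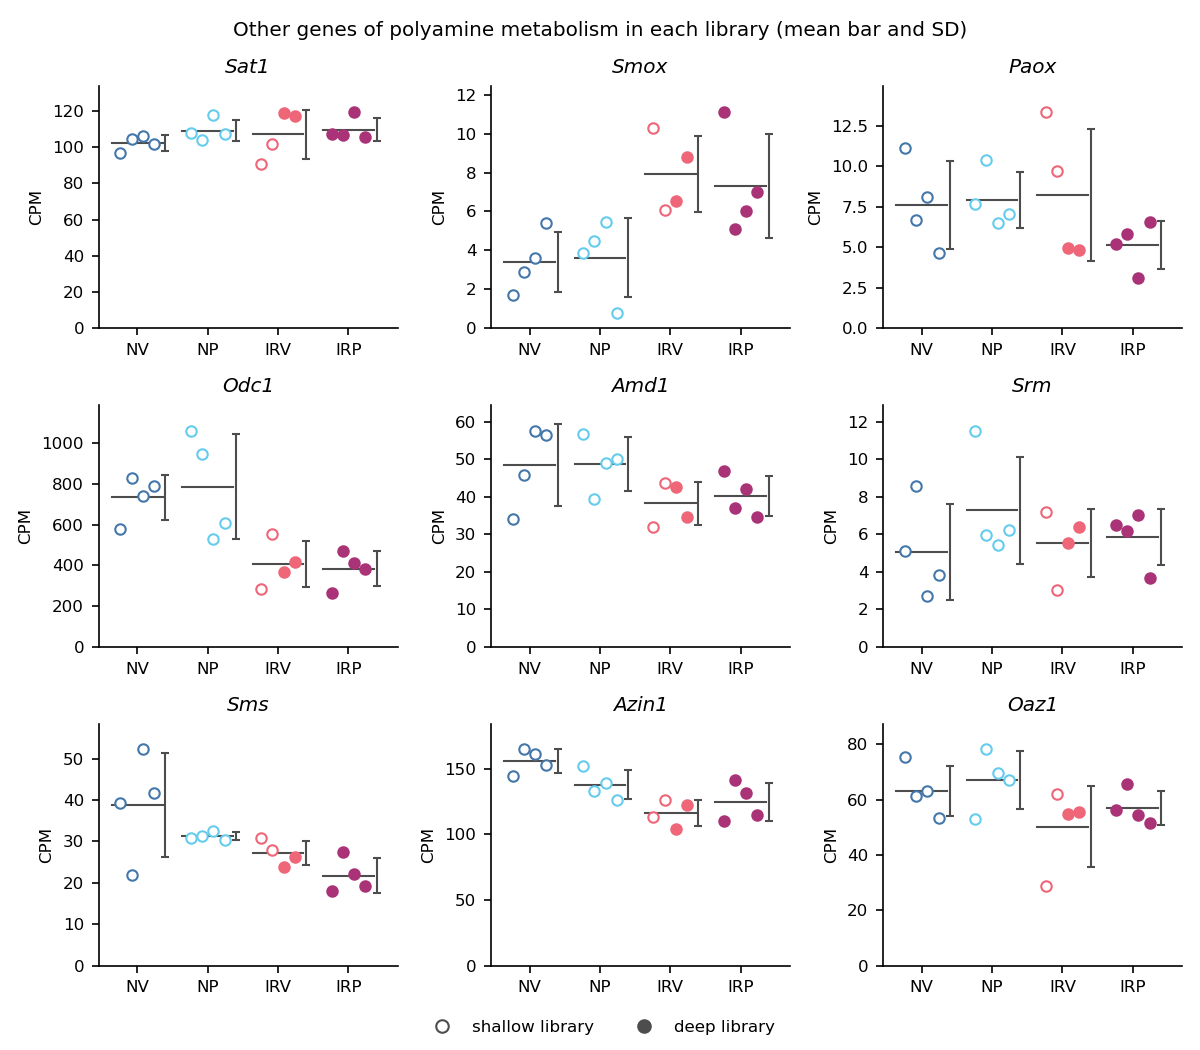
CPM of the 9 genes other than Aoc1 in each library, by group, with the libraries of a group in order of replicate. Open circles are shallow libraries and filled circles deep ones, and bars give the mean and SD (n = 4); Odc1 and Sms sit lower in IRV and IRP, Sat1 stays between 90.5 and 119 CPM, and the 2 deep IRV libraries are the low ones for Paox.

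On the side of synthesis, Odc1 fell in both injury comparisons. Odc1 encodes ornithine decarboxylase, the first and a rate-limiting enzyme of the pathway. NV libraries held 577, 829, 738 and 788 CPM, NP libraries 1059.9, 946, 527 and 608 CPM, IRV libraries 285, 554, 366 and 418 CPM and IRP libraries 266, 470.3, 410.1 and 382 CPM. Every IRV library was below every NV library and every IRP library below every NP library, although IRV replicate 2 exceeded NP replicate 3. The share of all genes that separate IRV from NV or IRP from NP in this way was not counted, so the separation is a description. The log2 differences were −0.85 ± 0.24 (adjusted p = 0.014) and −1.04 ± 0.24 (adjusted p = 0.00236).

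The fall of Odc1 kept its direction but not its call in fits that separate the library sets. With the set as a covariate edgeR called 0 of the 9 genes in either direction in both comparisons. At an unadjusted p under 0.05 there were 2 and 1 of the 9, beside 3726 and 2391 of the 13614 genes tested. The background of calls is that given above for the covariate, 7.93% higher and 6.13% lower for IRV against NV, and 2.52% and 0.786% for IRP against NP. Odc1 stood at −0.80 ± 0.29 (adjusted p = 0.0776) and −0.94 ± 0.40 (adjusted p = 0.22). Within the shallow libraries, IRV against NV gave −0.79 ± 0.28 (adjusted p = 0.0691) for Odc1 and called 0 of the 8 genes tested other than Aoc1. Of those 8, 2 had an unadjusted p under 0.05, beside 3380 of the 13564 genes tested. Of all genes tested there, 6.49% were called higher and 6.83% lower.

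Odc1 moved beside the proximal tubule markers. Per 1000 CPM of the 10 summed markers, Odc1 stood at 53.6 to 93.0 CPM in NV, 53.7 to 113 in NP, 74.0 to 98.2 in IRV and 58.8 to 78.0 in IRP. All 4 ranges overlapped, and the means were 72.8 ± 16.2, 76.1 ± 27.4, 80.6 ± 11.8 and 68.9 ± 8.13 (SD, n = 4). This ratio is taken within each library, so library scaling does not change it. It shows only whether both quantities changed by unequal factors, and the part of the proximal tubule in the fall of Odc1 was not tested.

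**Figure D3:**
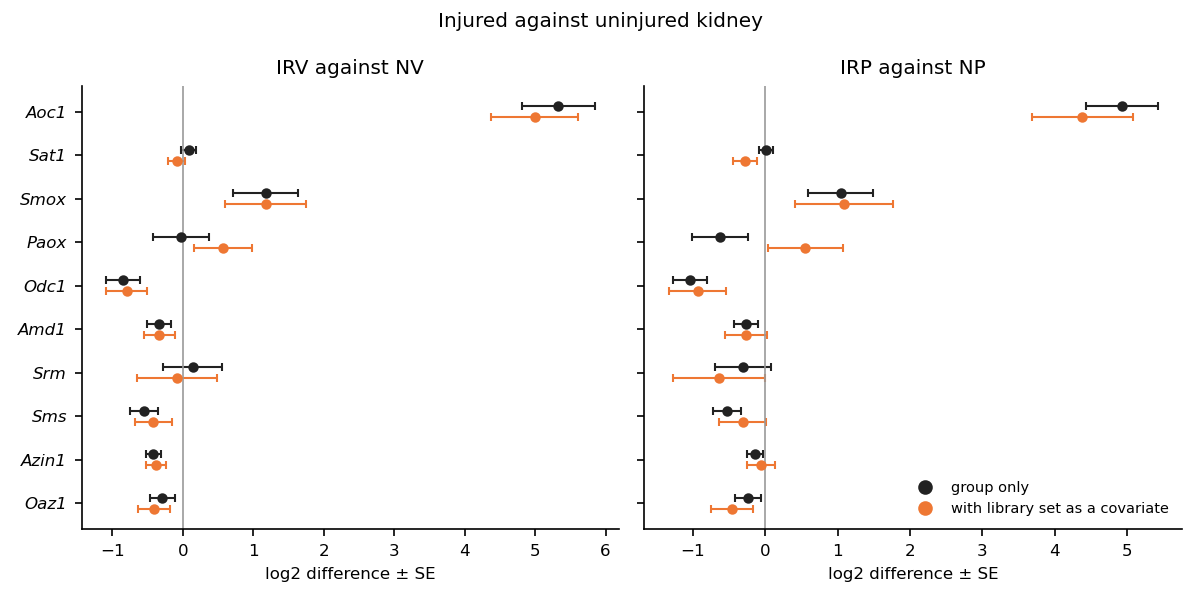
Log2 differences with their SE for the 10 genes, IRV against NV on the left and IRP against NP on the right. Black points are from the fit on group alone and orange points from the fit with the library set as a covariate; Odc1 keeps near −0.85 and −1.04 under both, while Paox changes from −0.63 to 0.55 in IRP against NP.

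Sms, which encodes spermine synthase, was also lower after injury, and the difference had a smaller error once its pseudogene was counted with it. NV libraries held 39.3, 22.0, 52.2 and 41.7 CPM, NP libraries 30.8, 31.2, 32.6 and 30.5 CPM, IRV libraries 30.8, 28.0, 23.9 and 26.3 CPM and IRP libraries 18.0, 27.5, 22.2 and 19.2 CPM. NV was the widest group, and its replicate 2 lay below all 4 IRV libraries. The log2 differences were −0.55 ± 0.20 (adjusted p = 0.0483) and −0.53 ± 0.20 (adjusted p = 0.0369). These calls were lost with the set as a covariate, at −0.42 (adjusted p = 0.328) and −0.31 (adjusted p = 0.682).

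The spread of Sms in NV was matched by the opposite spread of Sms-ps, a pseudogene that holds most of the 18.8% of 31-base stretches that Sms shares with other genes. Sms-ps held 11.1, 28.7, 0 and 17.0 CPM in NV replicates 1 to 4, so it was highest where Sms was lowest and at 0 where Sms was highest. Summed, the 2 genes held 50.4, 50.7, 52.2 and 58.7 CPM in NV and 52.9, 43.9, 45.7 and 42.2 CPM in NP. In IRV they held 30.8, 31.6, 30.96 and 31.2 CPM and in IRP 23.3, 36.96, 31.3 and 30.2 CPM. The SD of the sum was below that of Sms alone in NV (3.87 against 12.5 CPM) and IRV (0.339 against 2.93). It was above that of Sms alone in NP (4.69 against 0.959 CPM) and IRP (5.60 against 4.26).

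All 8 injured libraries lay below all 8 uninjured ones in this sum, as they did for 3.25% of the genes tested. The log2 differences of the sum were −0.77 ± 0.13 (adjusted p = 0.000578) and −0.60 ± 0.13 (adjusted p = 0.00165). With the set as a covariate they were −0.76 ± 0.19 (adjusted p = 0.0133) and −0.59 ± 0.25 (adjusted p = 0.208), and within the shallow libraries IRV stood at −0.76 ± 0.18 (adjusted p = 0.00872). The sum was formed after its values had been seen. With estimated counts, reads of Sms and Sms-ps cannot be told apart with certainty.

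**Figure D4:**
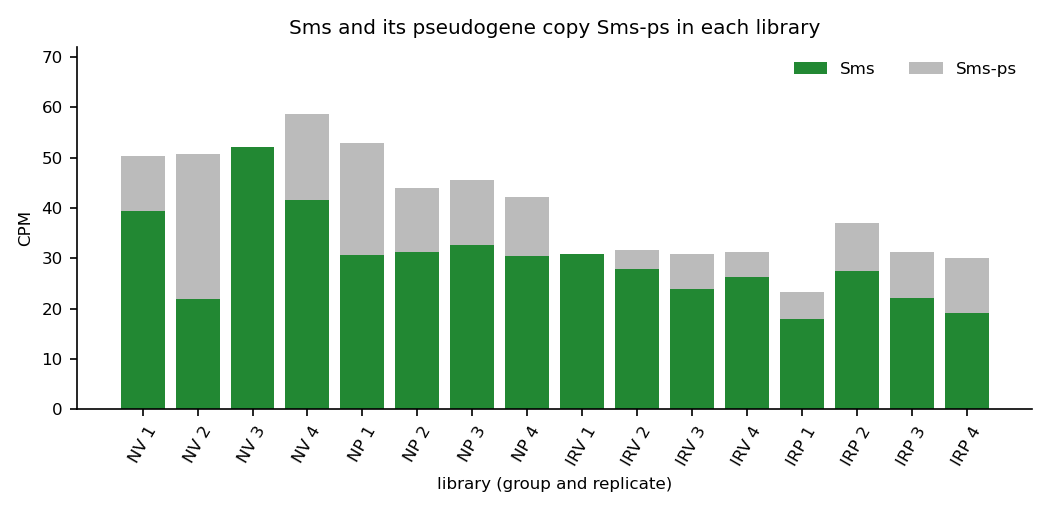
CPM of Sms (green) and its pseudogene Sms-ps (grey), stacked for each library from 0. The split between the 2 varies from library to library, from 0 to 28.7 CPM of Sms-ps within NV, while the stack stays between 42.2 and 58.7 CPM in the uninjured libraries and between 23.3 and 36.96 CPM in the injured ones.

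Amd1 and Srm did not pass the test in either comparison. Amd1 encodes S-adenosylmethionine decarboxylase, the source of the aminopropyl groups. NV libraries held 34.2, 45.9, 57.6 and 56.4 CPM, NP libraries 56.7, 39.4, 48.9 and 50.0 CPM, IRV libraries 31.9, 43.8, 42.6 and 34.7 CPM and IRP libraries 46.9, 37.1, 42.1 and 34.6 CPM. The groups overlapped, and the log2 differences were −0.33 ± 0.17 (adjusted p = 0.155) and −0.27 ± 0.16 (adjusted p = 0.196). Without NV replicate 1, the lowest NV library, the first reached −0.53 (adjusted p = 0.0245).

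Amd1 is uncertain as a single gene, since 82.8% of its 31-base stretches also occur in other genes, mostly Amd2. The counts of Amd2 were 19.6% of those of Amd1 in NV, 13.1% in NP, 6.38% in IRV and 1.64% in IRP. Summed with Amd2, the log2 differences were −0.37 ± 0.17 (adjusted p = 0.112) and −0.42 ± 0.16 (adjusted p = 0.047), and with the set as a covariate −0.13 and 0.03.

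Srm, which encodes spermidine synthase, was counted at low levels. NV libraries held 5.13, 8.61, 2.70 and 3.86 CPM, NP libraries 11.5, 5.95, 5.44 and 6.25 CPM, IRV libraries 7.20, 3.04, 5.54 and 6.39 CPM and IRP libraries 6.52, 6.16, 7.05 and 3.67 CPM. The groups overlapped, and the log2 differences were 0.14 ± 0.42 (adjusted p = 0.832) and −0.31 ± 0.39 (adjusted p = 0.547). The values rest on 23 counts in NV and 33 in NP, and the 95% intervals ran from −0.74 to 1.02 and from −1.12 to 0.51.

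The regulators are antizyme, made from Oaz1, which binds ornithine decarboxylase and sends it to the proteasome, and the antizyme inhibitor made from Azin1, which holds antizyme back. Synthesis of antizyme needs a shift of the ribosome's reading frame that polyamines promote, so its protein is set during translation. The stretch below, from the GENCODE M21 transcript Oaz1-205 (bases 55 to 114 of 538, 5′ to 3′), shows the site, with the last codon of the first frame and its stop codon in capitals.
Oaz1 frameshift site: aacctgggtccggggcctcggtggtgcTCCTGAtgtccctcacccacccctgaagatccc

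Azin1 was lower in IRV than in NV. NV libraries held 144, 164, 161 and 153 CPM and IRV libraries 113, 126, 104 and 123 CPM, with a log2 difference of −0.42 ± 0.11 (adjusted p = 0.00805). NP libraries held 152, 133, 139 and 126 CPM and IRP libraries 110.3, 141, 132 and 114 CPM, which overlapped, with a log2 difference of −0.14 ± 0.11 (adjusted p = 0.294). The difference between these 2 changes was 0.28 (95% interval −0.04 to 0.60, adjusted p = 0.529), so they were not shown to differ. The first was, with the set as a covariate, −0.38 ± 0.14 (adjusted p = 0.086).

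Oaz1 did not pass the test. NV libraries held 75.2, 61.2, 63.0 and 53.3 CPM, NP libraries 52.9, 78.1, 69.6 and 67.2 CPM, IRV libraries 28.8, 62.0, 54.8 and 55.4 CPM and IRP libraries 56.1, 65.6, 54.3 and 51.4 CPM. IRV replicate 1 was the lowest of the 16, and the other libraries of all groups overlapped. The log2 differences were −0.29 ± 0.18 (adjusted p = 0.243) and −0.24 ± 0.17 (adjusted p = 0.282). Counts of Oaz1-ps, a pseudogene that shares most of the 24% of 31-base stretches Oaz1 has in common with other genes, were 23.4% of those of Oaz1 in NV, 30.97% in NP, 39.4% in IRV and 44.6% in IRP. With both summed the log2 differences were −0.10 ± 0.16 and −0.08 ± 0.15.

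Directions of the small differences depend on the scaling. With library totals alone the median of all genes moved to 0.49 for IRV against NV and 0.57 for IRP against NP, and the calls split into 5716 higher and 246 lower and into 7012 higher and 1778 lower, against 2162 and 1511 and 2671 and 3264 with TMM scaling. Under that scaling Odc1 stood at −0.36 and −0.47 with neither called, Sms at −0.03 and 0.04, and Azin1 at 0.08 and 0.43, the latter called higher (adjusted p = 0.00588). Sat1 was called higher in both comparisons with library totals, at 0.60 (adjusted p = 0.00694) and 0.59 (adjusted p = 0.0042), near the shifted median. Aoc1 was above the shifted median under each scaling.

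No difference between PJ34 and vehicle was detected in any of the 10 genes. In IRP against IRV edgeR called 0 of the 10 genes and 0% of the 13614 tested. None of the 10 had an unadjusted p under 0.05, and neither DESeq2 nor limma-voom called one, although over all genes 1832 had an unadjusted p under 0.05, limma-voom called 0 and DESeq2 called 5 higher and 1277 lower. Without IRV replicate 3 edgeR called 9 genes higher and 1451 lower, and without IRV replicate 4 it called 13 and 1447, none of them among the 10. Aoc1 differed by −0.10, with a 95% interval from −0.69 to 0.48 (adjusted p = 0.993), and Odc1 by −0.09, from −0.59 to 0.41. The members ranged from −0.53 for Paox to 0.14 for Oaz1. Among the 6 deep libraries alone Aoc1 differed by −0.32 ± 0.41 and Odc1 by −0.04.

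In uninjured kidneys NP against NV likewise gave 0 of the 10 genes and 0% of all genes in edgeR, with 0 of the 10 and 501 of all at an unadjusted p under 0.05, while DESeq2 called 3 genes higher and 1 lower and limma-voom 0. Aoc1 differed by 0.30, with an interval from −1.74 to 2.35 that reflects its 9 and 11 counts, and the members ranged from −0.32 for Sms to 0.53 for Srm. The interaction of PJ34 with injury also gave 0 of the 10 and 0% of all genes in edgeR, with 0 of the 10 and 1550 of all at an unadjusted p under 0.05, while DESeq2 called 1 gene higher and 21 lower and limma-voom 0. Without IRV replicate 3 edgeR called 5 genes higher and 414 lower in the interaction, none of them among the 10. With the set as a covariate and all libraries, it called 0% of all genes in the interaction, with 428 at an unadjusted p under 0.05. For Aoc1 it was −0.40, from −2.54 to 1.73, so a PJ34 effect on its rise is poorly bounded from the uninjured side.

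The wider pathway was read from 52 further genes, of which 39 passed the filter on low counts. In IRV against NV 9 were higher and 5 lower, and in IRP against NP 6 were higher and 7 lower. The median log2 difference was −0.04 and 0.01, beside −0.03 and −0.01 over all genes tested. The background shares of called genes are those given above for the same comparisons, 15.9% higher and 11.1% lower, and 19.6% higher and 24% lower. The counts were, with the set as a covariate, 2 higher and 5 lower, then 0 and 0. In the last comparison 5 of the 39 had an unadjusted p under 0.05, beside 2391 of the 13614 genes tested. Of the 39, Arg2, Enoph1, Slc7a5, Myc and Sox9 reached 6.29 CPM in 0 of 8 uninjured libraries, and Oaz3 in 0 of 8 injured ones. Those genes were tested only through the groups where they are high, so their values are a description. The counts above include those of them that were called.

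**Figure D5:**
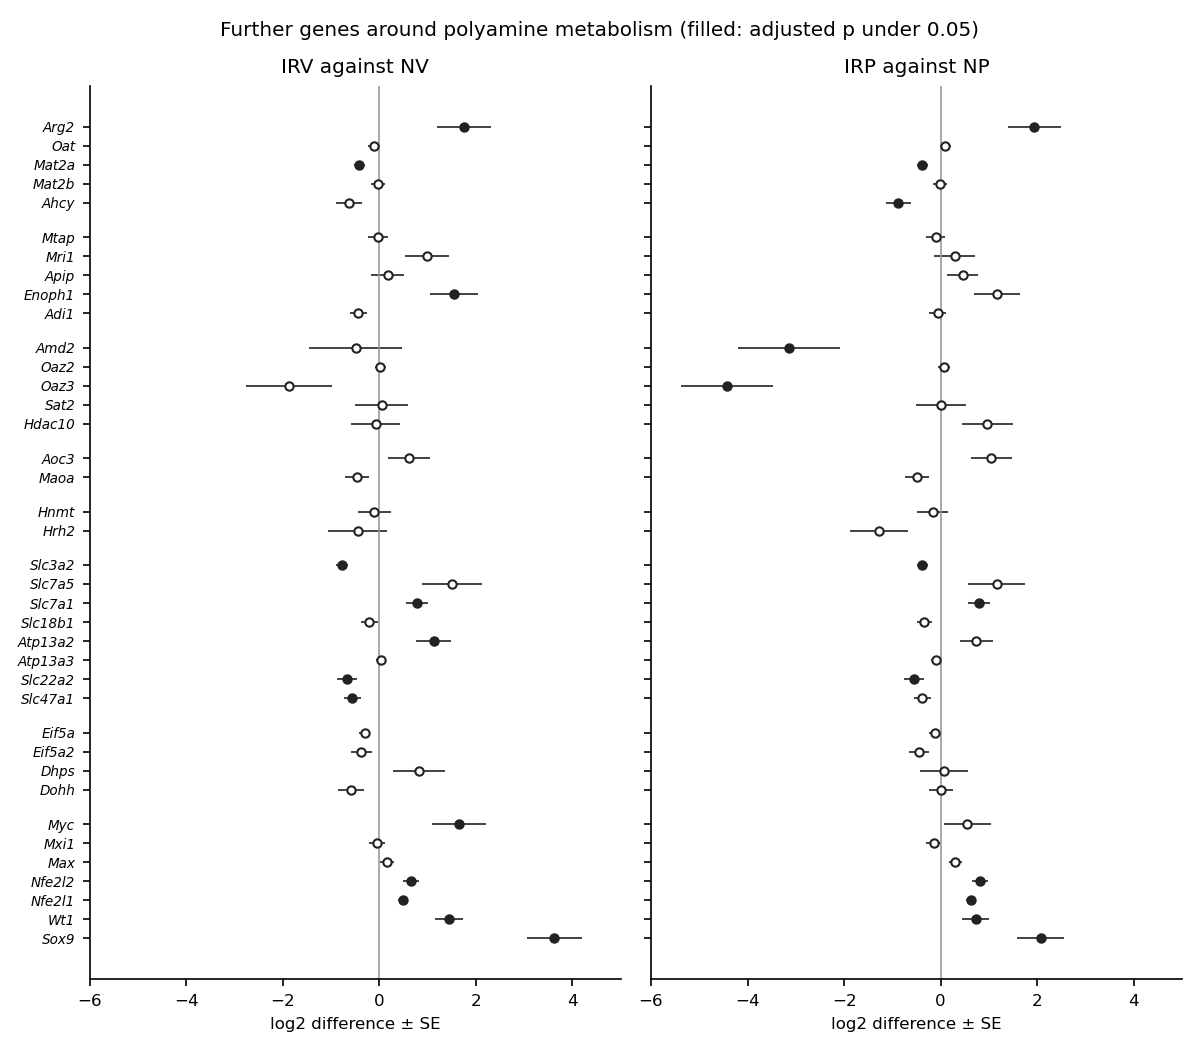
Log2 differences with their SE for the further genes tested and reported, IRV against NV on the left and IRP against NP on the right, in blocks from the top: precursor supply, methylthioadenosine salvage, other polyamine enzymes, other amine oxidases, histamine handling, transport, hypusination and transcription factors. Filled points had an adjusted p under 0.05. Arg2, whose values are a description, and Slc7a1 are filled on the right side of 0 in both comparisons and Slc3a2 and Slc22a2 on the left.

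Among genes that supply precursors, arginase 2 (Arg2), which makes ornithine from arginine, had means of 1.64 CPM in NV and in NP, 5.59 in IRV and 6.65 in IRP. The log2 differences, given as a description, were 1.76 ± 0.56 in IRV and 1.94 ± 0.55 in IRP. Its uninjured values rest on 8 counts in each group. Mat2a, which makes S-adenosylmethionine, fell by 0.42 and 0.38 on the log2 scale (adjusted p = 0.0111 and 0.0108). Ahcy, which clears S-adenosylhomocysteine, was at −0.63 in IRV (adjusted p = 0.092) and fell by 0.87 in IRP (adjusted p = 0.0124). Of the 5 salvage genes, which recycle the methylthioadenosine left by both synthases, none other than Enoph1 had an adjusted p under 0.05 in either comparison. Enoph1 itself is a description, at 1.54 in IRV and 1.16 in IRP. With the set as a covariate Enoph1 stood at 1.34 and 0.82 and Arg2 at 1.27 and 1.20, with none of these called. Mat2a then stood at −0.46 (adjusted p = 0.0462) and −0.45 (adjusted p = 0.245).

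Transporters moved in both directions. Slc7a1, a carrier of arginine and other cationic amino acids, rose by 0.77 and 0.80 (adjusted p = 0.0192 and 0.00797), and Atp13a2, a lysosomal polyamine exporter, rose by 1.13 in IRV (adjusted p = 0.0312) and was at 0.74 in IRP (adjusted p = 0.0908). Slc3a2, the heavy chain of several amino acid exchangers, fell by 0.77 and 0.38 (adjusted p = 0.00015 and 0.0117). Slc22a2, an organic cation transporter of the tubule, fell by 0.66 in IRV and by 0.55 in IRP, and Slc47a1, which exports organic cations into urine, fell by 0.57 in IRV (adjusted p = 0.0237). Under the covariate Slc3a2 and Slc47a1 were still lower in IRV, at −0.94 and −0.74, but 0 of the 9 transport genes tested were called higher in either comparison and 0 lower in IRP. Slc7a1 then stood at 0.81 (adjusted p = 0.0921) and 0.87 (adjusted p = 0.23), and Atp13a2 at 1.08 (adjusted p = 0.135) and 0.64 (adjusted p = 0.581). Slc22a2 stood at −0.75 (adjusted p = 0.0683) and −0.72 (adjusted p = 0.297), and Slc3a2 in IRP at −0.66 (adjusted p = 0.0614). Of the transporters named here, Slc22a2 and Slc47a1 are known from the tubule, and the proximal tubule markers fell as given above. The part of that fall in the values of the transporters was not tested.

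Of the other enzymes and regulators of the pathway, 2 of the 5 tested were lower in IRP, Amd2 (−3.13 ± 1.06, adjusted p = 0.0236) and Oaz3 (−4.42 ± 0.95, a description as said above). Both rest on few counts, 29 in NP against 18 in IRP for Amd2 and 29 against 7 for Oaz3, and moved with the library sets: with the set as a covariate Amd2 turned to 1.73 and Oaz3 stood at −0.67, with neither called. Within IRV, where both sets are present, the 4 libraries of Amd2 ranged from 0.284 to 22.6 CPM. Histamine, the other substrate of diamine oxidase, is made by Hdc, which was too low to test, and Hnmt, which methylates it, was at −0.10 and −0.17 with adjusted p of 0.85 and 0.705. Among other amine oxidases, 0 of the 2 tested passed in either comparison: Aoc3 was at 0.62 and 1.05 and Maoa at −0.46 and −0.49. By unadjusted p under 0.05 these 2 gave 0 in IRV against NV and 1 in IRP against NP, beside 5301 and 6876 of the 13614 genes tested. Hypusination, the attachment of a part of spermidine to the translation factor made by Eif5a, had 0 of 4 genes called in both. In each, 1 of the 4 had an unadjusted p under 0.05, against the same background. Under the covariate 1 of the 4, Dohh, which carries out the last step of hypusination, was lower in IRV than in NV, at −1.13 ± 0.37 (adjusted p = 0.047).

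Transcription factors linked to the pathway were chosen with their known roles in mind: Odc1 is a known target of Myc, and Nfe2l2 and Nfe2l1 act on stress genes. Wt1 rose by 1.44 and 0.73, Nfe2l2 by 0.65 and 0.82, and Nfe2l1 by 0.49 and 0.62, all past the threshold. Wt1 is also known from podocytes, whose 4 markers, 4 of 4 higher in both comparisons (medians 0.83 and 0.89), summed to 374 to 451 CPM in NV, 408 to 414 in NP, 585 to 883 in IRV and 719 to 771 in IRP. Under the covariate 4 of 4 were higher in IRV and 1 of 4 in IRP. The part of podocytes in the level of Wt1 was not tested. Sox9, which is also on the list of injured tubule markers, differed by 3.63 ± 0.56 in IRV and 2.08 ± 0.49 in IRP. It reached at most 3.26 CPM in an uninjured library, so these values are a description. Myc, a description too, differed by 1.65 ± 0.56 in IRV and by 0.56 in IRP. Odc1 was lower in the same IRV libraries, and a link between Myc and Odc1 was not tested. Under the covariate Wt1 (1.22) passed in IRV and Sox9 stood at 3.03 there. Nfe2l2, Nfe2l1 and Myc were then not called in IRV, and none of these 5 genes was called in IRP.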

How the data were processed

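The deposited table holds 16 kidney libraries, 4 in each of 4 groups taken from the titles. Its values are estimated counts per gene that the authors made from their reads and did not normalise, and Salmon 1.3.0, which estimates such counts, is named in the submitters' processing notes beside FastQC 0.11.3, DESeq2 1.30.1, Trim Galore 0.6.6 and build GRCm39. Per the labels' protocols a directional kit was used on poly(A) RNA. The sources used here do not tell whether molecular identifiers were counted. The deposited counts were whole already, so rounding changed 0 values. Symbols were matched by Ensembl ID without version for 40276 of 40472 IDs.

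All 16 libraries entered 1 fit in edgeR 4.0.16 (R 4.3.3): genes kept by filterByExpr at a minimum count of 10 (13614), TMM scaling, the quasi-likelihood test with the group as the only term, and Benjamini-Hochberg adjustment over all genes tested at 0.05. Each SE is the log2 difference divided by the root of its F value, and each interval covers 95%. CPM uses the same scaled library sizes. Depth was 973812 to 6169748 counts, and the low counts named beside Aoc1, Smox, Srm, Arg2, Amd2 and Oaz3 limit their precision. The code was tested on simulated counts.

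Alternatives were DESeq2 size factors, library totals, no filter, DESeq2 1.42.0, limma-voom (limma 3.58.1), the replicate number as a block, the library set as a covariate or within 1 set, each library left out, and near-identical genes summed (chosen after the data were examined). Over 24 pairs of libraries with the same number in different groups, the correlation of deviations from group means ran from −0.23 to 0.26, with 5 pairs over 0.1, so the numbers do not pair the libraries. Libraries of 1 group all differed by more than sampling noise (lowest chi-square per degree of freedom 1.75 over 24 pairs).

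The 10 genes, the pathway and marker lists and the library sets were chosen with earlier results of these data known. Genes named are the 10, up to 4 of each pathway list by the smallest p in either injury comparison with any that a small count covers, the 6 genes most like Aoc1 among named genes whose log2 CPM averaged at least 1 (prior count 2), and Havcr1 and Lcn2. Of the genes counted in the pathway lists, 1 is not reported here by name. Mpeg1 and Stra6 were given by library after their values were seen. Promoters are from RefSeq and 31-base stretches from GENCODE M21.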

Additional observations from a re-analysis of the deposited data

Results flagged for a closer look

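Of 40 sets of 4 libraries (10 genes in 4 groups), 2 held a library that stood far from the other 3, and chance alone gives such a gap in about 1 of 20 sets. Srm in NP replicate 1 was at 11.5 CPM, while the other NP libraries lay between 5.44 and 6.25 CPM. Sat1 in IRP replicate 3 was at 119 CPM, while the other IRP libraries lay between 105 and 107 CPM.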

How the results depend on the processing

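Log2 differences of Aoc1 between injured and uninjured groups stayed positive under every alternative run, from 4.38 with the library set as a covariate to 5.55 with library totals only for IRP against NP. Of the 9 other genes in IRV against NV, 2 were called higher with library totals only and 1 without the filter, and 0 were called lower with library totals, without the filter, with the set as a covariate or within the shallow libraries. In IRP against NP, 3 were called higher with library totals and 2 without the filter. The number called lower was then 0 with library totals, 1 without the filter, 1 with the replicate block, 0 with the set as a covariate and 3 with near-identical genes summed. With each library left out in turn it was 1 to 3, and in IRV against NV 2 to 3. The genes counted here include Smox, whose values are a description.

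With the replicate block Sms lost its call in both comparisons (adjusted p = 0.0701 and 0.0551), and the block changed no other call of the 10 genes; 4 of 16 libraries correlated best with their own number. Sms also lost its call in IRV against NV without NV replicate 1, 3 or 4 or IRV replicate 3 or 4, and in IRP against NP without NP replicate 2 or 3 or IRP replicate 1 or 4. Azin1 gained one in IRP against NP without IRP replicate 2 (adjusted p = 0.0408).

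Signs changed as follows, and the cause was not tested. In IRV against NV, library totals gave Amd1 0.19, Paox 0.44, Azin1 0.083 and Oaz1 0.23, and no filter gave Paox 0.23 and Oaz1 0.029. There the set as a covariate gave Srm −0.082, Sat1 −0.084 and Paox 0.57, and the shallow libraries gave Srm −0.066, Sat1 −0.087 and Paox 0.56. Paox summed with Gm19680, a gene that holds 26.2% of its 31-base stretches, gave 0.34 in that comparison. In IRP against NP, library totals gave Amd1 0.32, Srm 0.28, Sms 0.038, Azin1 0.43 and Oaz1 0.33, no filter gave Amd1 0.16, Srm 0.13, Azin1 0.29 and Oaz1 0.20, and the covariate gave Sat1 −0.28 and Paox 0.55. In IRP against IRV, Aoc1 was 0.0056 with library totals and 0.0012 without the filter, and Odc1 0.042 without the filter. Leaving out 1 library gave −0.12 to 0.50 for Srm, −0.033 to 0.15 for Sat1 and −0.32 to 0.17 for Paox in IRV against NV, −0.10 to 0.037 for Sat1 in IRP against NP, −0.42 to 0.11 for Aoc1 and −0.23 to 0.10 for Odc1 in IRP against IRV, −0.073 to 0.25 for Odc1 in NP against NV, and −0.34 to 0.0014 for Odc1 in the interaction.

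Over all genes, leaving out the filter gave 3124 higher and 600 lower in IRV against NV and 5805 and 10928 in IRP against NP, and limma-voom gave 1575 and 3324 in IRV against NV. The shallow libraries limit Aoc1, Smox, Srm and Paox.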
